A study of Rattus norvegicus with 9 samples.

Results

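The immediate early genes examined here were Fos, Fosb, Fosl1, Jun, Junb, Egr1, Atf3, Ier3, Myc and Maff. They were taken as the rows of the deposited tables that carry these symbols, which gave 10 of 32883 genes, and all 10 passed the filter on low counts that 14089 genes passed. Bulk RNA-seq was performed on the livers of 9 male Sprague-Dawley rats aged 8 to 11 weeks, with 3 normal rats, 3 rats with acute-on-chronic liver failure (ACLF) in the empty group and 3 rats with ACLF in the UTOpiA group. Both ACLF groups had the common bile duct ligated for 21 days and then received lipopolysaccharide (LPS), a bacterial endotoxin, at 0.25 mg/kg into the abdomen. Whole blood of both groups was circulated under isoflurane and heparin for 2 h from 1 h after LPS. The circuit of the empty group held neither cells nor an apheresis column, whereas the UTOpiA circuit held 2 columns in series, beads that adsorb granulocytes and monocytes and alginate capsules of human iPSC-derived hepatocyte-like cells. Livers of ACLF rats still alive 24 h after LPS were collected at that time, and the labels describe the normal rats only as normal. Ligation, LPS, anesthesia, heparin and the circuit therefore cannot be told apart in any comparison with normal livers.

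Immediate early genes are transcribed within minutes of a stimulus, without new protein synthesis, when kinase cascades activate transcription factors that are already present in the cell. Most encode transcription factors that switch on a second set of genes, and their own transcripts and proteins are usually short-lived. In liver they are known for their fast and brief induction after partial hepatectomy, endotoxin, cytokines and tissue stress. Fos and Jun family proteins pair to form AP-1, Atf3 and Maff belong to related leucine-zipper families, Egr1 is a zinc-finger factor, and Myc pairs with Max. Ier3 is an immediate early gene but encodes no transcription factor; its product modulates cell survival and kinase signaling.

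The libraries held between 14241172 and 17321677 counted reads. Alb, the plasma albumin gene that marks hepatocytes, was between 114722 and 127172 TPM (transcripts per 1000000, scaled by gene length) in normal livers and between 12840 and 33608 TPM in the 6 ACLF livers. No gene in the tables overlapped the positions of any of the 10 genes. In a chi-square comparison of counts over genes, replicates of a group differed by at least 17.6 per degree of freedom, so no library was a copy of another of its group. Empty replicate 2 stood furthest from the other livers of its group, at 212 from replicate 1 and 164 from replicate 3. For the 10 genes each comparison is given with and without this liver, and for the lists of other genes most counts called are given both ways.

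Empty replicate 2 carried the highest TPM of all 9 livers in 10 of the 10 immediate early genes, which was the case for 17.6% of all genes tested. It was more than 2-fold above every other ACLF liver in 10 of 10, against 1.56% of all genes tested. The corresponding share for each of the other ACLF livers lay between 0.156% and 0.788%. Its ratio to the highest other ACLF liver ranged from 2.57 for Jun to 42.2 for Fos, with a median of 6.82 over the 10 genes and 0.79 over all genes tested. This single liver supplied between 67.8% and 96.5% of the summed TPM of the empty group. In all, 14 genes were more than 10-fold above every other ACLF liver, or 0.0994% of those tested. Fos, Fosb, Atf3 and Egr1 were among these 14, and the other 10 included the cytokine genes Il6 and Lif, the neutrophil chemokine genes Cxcl1 and Cxcl2, and Ptgs2, which encodes cyclooxygenase-2.

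**Figure D1:**
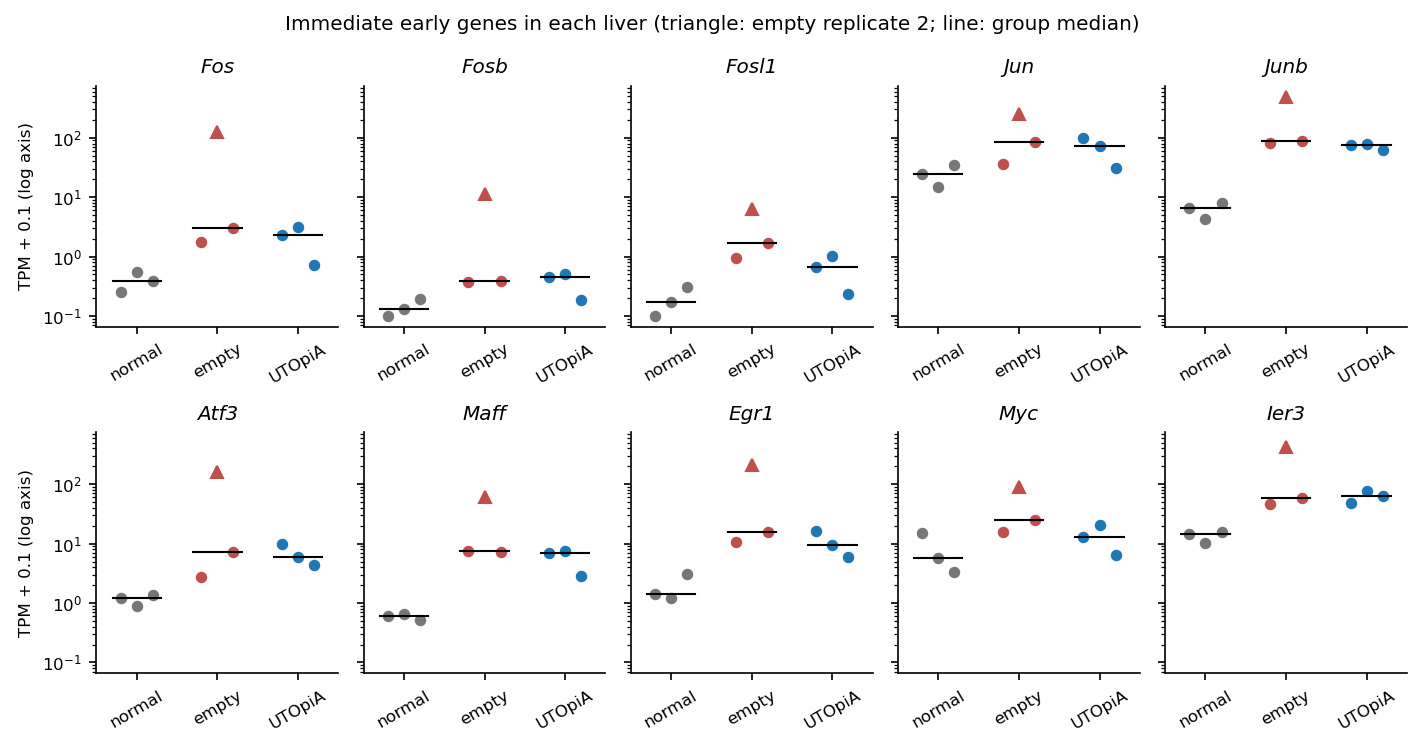
TPM + 0.1 on a log axis for each of the 10 immediate early genes in 9 livers, with 3 points per group, a line at the group median and a triangle for empty replicate 2. The triangle is the highest point in every panel; the other 5 ACLF livers span 0.615 to 3.00 TPM for Fos, against 127 TPM in empty replicate 2, and 30.7 to 98.2 TPM for Jun, against 252 TPM.

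Set against the mean of normal livers, the median ratio over the 10 genes was 5.66, 98.7 and 7.72 in empty replicates 1, 2 and 3. In UTOpiA replicates 1, 2 and 3 it was 7.99, 7.79 and 2.66. UTOpiA replicate 3 had the lowest TPM of the 6 ACLF livers in 8 of the 10 genes. The share of all genes lowest in this liver was not computed. Its summed neutrophil (175 TPM), macrophage (455 TPM), cholangiocyte (88.4 TPM), stellate and fibroblast (404 TPM) and T cell (26.6 TPM) markers were also lowest of the 6. Its hepatocyte, endothelial, B cell, erythroid and proliferation markers were not. The SD of log2 CPM (counts per 1000000 reads) within the empty group was between 1.30 and 3.35 for these genes, with a median of 1.77, whereas the median over all genes tested was 0.29. It fell to a median of 0.30 in the remaining pair of empty livers, against 0.19 over all genes. In normal and UTOpiA livers the median SD of the 10 genes was 0.57 and 0.60, against 0.19 and 0.30 over all genes.

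The levels of cell type markers in empty replicate 2 are given beside these values, since bulk tissue mixes cell types and fewer cells of a type cannot be told apart from less RNA per cell. Its summed TPM over 8 hepatocyte markers was 84310, the highest of the 6 ACLF livers, which otherwise lay between 55885 and 82360. Alb alone made up 33608 TPM of this sum. Of the 8 markers, 2 were highest and 3 were lowest of the 6 in this liver. Summed stellate and fibroblast markers (812 against 404 to 765 TPM), endothelial markers (114 against 64.4 to 80.1 TPM) and erythroid markers (3205 against 721 to 2517 TPM) were also highest in this liver. Of 6 stellate and fibroblast markers, 2 were highest and 2 lowest of the 6 ACLF livers there. For 5 endothelial markers these counts were 4 and 0, and for 3 erythroid markers 2 and 0. Neutrophil markers summed to 186 TPM, the second lowest of the 6, against 537 and 1108 TPM in empty replicates 1 and 3 and 175 to 507 TPM in UTOpiA livers. Of the 8 neutrophil markers, Ltf was at 0 in all 9 livers. The calprotectin subunit gene S100a8 was at 75.4 TPM in empty replicate 2, the lowest of the ACLF livers, which otherwise reached from 84.6 to 503 TPM. Macrophage, T cell, cholangiocyte and proliferation lists ranked 2 or 3 of 6 there, and the B cell list was lowest. The macrophage gene Cd68 was at 61.4 TPM in empty replicate 2, inside the range of the other ACLF livers (31.4 to 129 TPM), and the bile duct keratin gene Krt19 at 38.5 TPM, just above theirs (6.67 to 36.0 TPM). The part of these cell types in the values of the immediate early genes was not tested.

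In ACLF livers of the empty group, 8 of the 10 genes rose against normal livers, namely Fos, Fosb, Fosl1, Junb, Egr1, Atf3, Maff and Ier3, while Jun and Myc did not pass the test. A gene was called when edgeR's two-sided quasi-likelihood test on the counts of all 9 livers gave an adjusted p (Benjamini-Hochberg, all 14089 genes) under 0.05 and its fold change was above 2. Of all genes tested, 20.7% were called higher in this comparison and 11.1% lower. The median log2 fold change was 4.79 over the 10 genes and 0.04 over all genes. All 3 empty livers had a higher TPM than all 3 normal livers in 10 of 10, as did 53.4% of all genes. TPM carries no TMM scaling (a correction for differences in library composition), which the fitted fold changes use. The TMM factors were 0.80 to 0.83 in normal, 1.11 to 1.32 in empty and 0.86 to 1.23 in UTOpiA livers. TPM, and ratios of TPM to normal livers, can therefore place ACLF livers higher than scaled counts do. When empty replicate 2 was left out, 7 of 10 were called, beside 20.4% of all genes, with Fosb lost and a median log2 fold change of 2.19.

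In the UTOpiA group, 2 of the 10 genes, Junb and Maff, rose against normal livers. In that comparison 18.2% of all genes tested were called higher and 6.81% lower. The median log2 fold change was 2.23 over the 10 genes and 0.05 over all genes. All 3 UTOpiA livers exceeded all 3 normal livers in 6 of 10, as did 39% of all genes; Fosb, Fosl1, Jun and Myc overlapped. When empty replicate 2 was left out, Fos, Egr1, Atf3 and Ier3 were also called, which made 6 of 10 beside 18.8% of all genes. The fold changes barely moved, as for Ier3 (log2 1.93 with all livers and 1.92 without it), but its SE went from 0.78 to 0.22; the spread in these fits is estimated over the 3 groups together. Both comparisons share the normal livers.

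Fos, the partner of Jun in the classical AP-1 dimer (chr6:109300433-109303299, + strand, in the positions of the tables), was among the scarcest of the 10 genes in normal liver. It was at 0.157, 0.444 and 0.292 TPM in normal replicates 1, 2 and 3, at 1.64, 127 and 2.95 TPM in the empty group and at 2.25, 3.00 and 0.615 TPM in the UTOpiA group. Each ACLF liver was above each normal liver, and empty replicate 2 was the only liver above 3.00 TPM. Its counts were 26, 1855 and 44 in the empty livers and 30, 44 and 9 in the UTOpiA livers. The log2 fold change of empty against normal was 6.65 (SE 1.88, adjusted p = 0.0181), and 2.35 (SE 0.65, adjusted p = 0.0147) without empty replicate 2. UTOpiA against normal gave 2.29 (SE 2.05, adjusted p = 0.404) with all livers and 2.27 (SE 0.61, adjusted p = 0.0153) without it. The call for the empty group was lost when any of the 3 normal livers was left out, with an adjusted p of 0.0592, 0.0549 and 0.0580 without normal replicate 1, 2 and 3.

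Fosb (chr1:80214494-80221710, - strand), a second Fos protein that pairs with Jun proteins, was at lower levels than Fos in every liver. It was at 0, 0.0314 and 0.0931 TPM in the normal livers, at 0.268, 11.03 and 0.284 TPM in the empty livers and at 0.350, 0.406 and 0.0870 TPM in the UTOpiA livers. UTOpiA replicate 3 lay among the normal livers, and empty replicate 2 had 380 counts where no other liver had more than 14. The normal livers held 4 counts in total, so the ratio of summed counts per library size is given with its exact 95% interval, which covers counting error only. This ratio was 89.7 (34.8 to 331) for the empty group, 6.71 (2.25 to 27.0) for the empty group without replicate 2 and 6.74 (2.36 to 26.5) for the UTOpiA group. Library size is here the total count without TMM scaling, which makes the ratio larger than the edgeR fold. The edgeR log2 fold change was 5.91 for empty against normal, 2.09 without empty replicate 2 and 2.26 for UTOpiA against normal. In edgeR the adjusted p was 0.0251 for empty against normal, 0.104 without empty replicate 2 and between 0.0568 and 0.0782 without a normal liver. For UTOpiA against normal it was 0.402, and 0.0724 without empty replicate 2.

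Fosl1 (chr1:220826560-220835066, + strand) encodes Fra-1, a Fos protein that lacks the strong activation domain of Fos. It was at 0, 0.0707 and 0.209 TPM in the normal livers, at 0.845, 6.20 and 1.60 TPM in the empty livers and at 0.572, 0.913 and 0.130 TPM in the UTOpiA livers. The empty livers were separate from the normal livers, whereas UTOpiA replicate 3 was below normal replicate 3. The normal livers again held 4 counts in total. The count ratio to normal, again without TMM scaling, was 30.1 (11.5 to 112) for the empty group. It was 13.1 (4.72 to 50.4) without empty replicate 2 and 5.78 (1.99 to 22.9) for the UTOpiA group. Fosl1 remained called for empty against normal without that liver (adjusted p = 0.00939 with it and 0.0266 without it), and in every alternative that gave an adjusted p. It was not called for UTOpiA against normal, with an adjusted p of 0.2002, or of 0.116 without empty replicate 2.

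Jun (chr5:114011189-114014277, - strand), the founding Jun protein, was the most abundant of the 10 in normal liver. It was at 24.7, 15.002 and 34.5 TPM in the normal livers, at 36.4, 252 and 83.6 TPM in the empty livers and at 98.2, 71.7 and 30.7 TPM in the UTOpiA livers. By TPM, empty replicate 1 was barely above the highest normal liver, and UTOpiA replicate 3 was within the normal range. The log2 fold change of empty against normal was 1.80 (SE 0.68, adjusted p = 0.0540), and 0.70 (SE 0.48, adjusted p = 0.260) without empty replicate 2. It passed in 5 of 20 alternatives, namely without empty replicate 1 (2.22, adjusted p = 0.0167), by DESeq2 (1.81, adjusted p = 0.00778), by limma on log2(TPM + 1) (adjusted p = 0.0412) or log2(TPM + 0.1) (0.0470), and with at least 10 counts in every library (0.0473). UTOpiA against normal gave 1.06 with and without empty replicate 2, with an SE of 0.66 (adjusted p = 0.235) and 0.44 (adjusted p = 0.0851). That comparison passed in 1 of 20 alternatives, DESeq2 without empty replicate 2 (1.05, adjusted p = 0.0299).

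Junb (chr19:26092974-26094756, - strand) encodes a Jun protein that is a weaker activator than Jun and can restrain it. It was at 6.52, 4.22 and 7.94 TPM in the normal livers, at 81.0, 486 and 86.8 TPM in the empty livers and at 76.6, 77.03 and 60.9 TPM in the UTOpiA livers. All ACLF livers were far above all normal livers, and apart from empty replicate 2 they differed little from each other. Its log2 fold change over normal was 4.62 (SE 0.75, adjusted p = 0.00147) for empty livers and 3.20 (SE 0.71, adjusted p = 0.00826) for UTOpiA livers. Without empty replicate 2 these became 3.21 (SE 0.23, adjusted p = 2.99e-05) and 3.20 (SE 0.22, adjusted p = 2.83e-05). Junb was called in both comparisons with normal livers in 20 of 20 alternatives. It was the most abundant of the 10 in both ACLF groups, but its UTOpiA values overlapped those of Jun (30.7 to 98.2 TPM) and Ier3 (49.0 to 77.5 TPM), the next in order.

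Atf3 (chr13:109817728-109849632, - strand) is a stress-induced factor of the ATF/CREB family that often represses inflammatory genes. It was at 1.12, 0.809 and 1.28 TPM in the normal livers, at 2.62, 164 and 7.06 TPM in the empty livers and at 9.86, 5.81 and 4.33 TPM in the UTOpiA livers. Every ACLF liver was above the normal range, and each UTOpiA liver was above empty replicate 1. For Atf3, empty against normal gave a log2 fold change of 5.25 (SE 1.48, adjusted p = 0.0180), and 1.60 (SE 0.44, adjusted p = 0.0148) without empty replicate 2. UTOpiA against normal gave 2.30 with and without that liver, with an SE of 1.39 (adjusted p = 0.218) and 0.41 (adjusted p = 0.00229). The call for the empty group was lost when normal replicate 1, 2 or 3 was left out (adjusted p = 0.0558, 0.0620 and 0.0538).

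Maff (chr7:120580743-120592095, + strand) is a small Maf protein, a leucine-zipper factor without an activation domain of its own that partners other factors, including NRF2. It was at 0.515, 0.545 and 0.419 TPM in the normal livers, at 7.44, 60.6 and 7.01 TPM in the empty livers and at 6.87, 7.54 and 2.74 TPM in the UTOpiA livers. Normal livers were tightly grouped and every ACLF liver was well above them. Empty against normal gave a log2 fold change of 5.15 (SE 1.01, adjusted p = 0.00343), and 3.33 (SE 0.37, adjusted p = 0.000181) without empty replicate 2. UTOpiA against normal gave 3.14 (SE 1.00, adjusted p = 0.0349), and 3.14 (SE 0.35, adjusted p = 0.000241) without it. The UTOpiA call was lost without UTOpiA replicate 1 (adjusted p = 0.0740), without UTOpiA replicate 2 (0.1004) and without any normal liver (0.0869 to 0.0957).

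RefSeq promoters of the rat build GRCr8, each from 250 bases before to 50 bases after the gene start, matched 5 of the 10 genes by gene identifier, namely Fosb, Fosl1, Maff, Egr1 and Junb. The 250 bases before the start of Maff (chr7:112792537-112792786, + strand) are shown because Maff, like Junb, was called in both ACLF groups and its window held 4 of the 7 motifs searched. Capitals mark 3 of these, from left to right an E-box (CACGTG, at -213 from the start), an Egr site (GCGNGGGCG, at -110) and a cAMP response element (CRE, TGACGTCA, at -51).
Maff: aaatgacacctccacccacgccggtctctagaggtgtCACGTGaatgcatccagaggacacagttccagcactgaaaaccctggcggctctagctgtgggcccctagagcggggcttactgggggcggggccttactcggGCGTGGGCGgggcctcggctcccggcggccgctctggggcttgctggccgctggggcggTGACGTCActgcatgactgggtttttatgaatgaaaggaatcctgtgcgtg

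Over all 33469 RefSeq promoters of that length, 6.42% held this E-box, 4.98% the Egr site and 1.83% the CRE, counting both strands. The degenerate 10-base NF-kB pattern was in the windows of Maff (at -128 and -106, the latter overlapping the Egr site), Fosb, Fosl1 and Egr1, and in 47.3% of all promoters. The Egr1 window held 2 CArG boxes, the binding motif of serum response factor, at -105 and -83, where 1.64% of all promoters held at least 1. The sequence TATAAA was found in the windows of Junb, at -49, and of Fosb, on the other strand at -180, and in 14.2% of all promoters. The AP-1 site TGANTCA was in none of the 5 windows and in 7.33% of all promoters. A match is a description of letters and not of a bound site.

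Egr1 (chr18:27657628-27661429, + strand) encodes a zinc-finger factor induced by growth factors and injury. It was at 1.32, 1.13 and 2.93 TPM in the normal livers, at 10.4, 214 and 15.4 TPM in the empty livers and at 16.3, 9.25 and 5.79 TPM in the UTOpiA livers. The groups of ACLF livers were both separate from normal livers and overlapped each other. Egr1 had a log2 fold change of empty against normal of 4.96 (SE 1.23, adjusted p = 0.0101), and 2.29 (SE 0.47, adjusted p = 0.00470) without empty replicate 2. UTOpiA against normal gave 2.19 (SE 1.13, adjusted p = 0.155), and 2.19 (SE 0.44, adjusted p = 0.00523) without it.

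Myc (chr7:102586313-102591240, + strand), which drives ribosome production and growth, varied widely among the normal livers. It was at 14.9, 5.55 and 3.23 TPM in the normal livers, at 15.4, 88.4 and 24.5 TPM in the empty livers and at 12.8, 20.2 and 6.25 TPM in the UTOpiA livers. By TPM, normal replicate 1 lay above UTOpiA replicates 1 and 3 and just below empty replicate 1. Empty livers gave a log2 fold change over normal of 1.92 (SE 0.75, adjusted p = 0.0609), and 0.79 (SE 0.58, adjusted p = 0.298) without empty replicate 2. It passed in 6 of 20 alternatives, namely without normal replicate 1 (2.77, adjusted p = 0.0279), without empty replicate 1 (2.31, adjusted p = 0.0350), by DESeq2 (1.93, adjusted p = 0.0107) and by limma on log2(TPM + 0.1) (adjusted p = 0.0358) or on log2(TPM + 1) with (0.0315) and without (0.0470) a filter. UTOpiA against normal gave 0.33 with and without empty replicate 2, with an SE of 0.73 (adjusted p = 0.745) and 0.53 (adjusted p = 0.642), and passed in 0 of 20 alternatives.

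Ier3 (chr20:3438798-3440769, - strand) had the second highest mean TPM of the 10 in normal livers, though Myc was above it in normal replicate 1. It was at 14.3, 10.3 and 15.5 TPM in the normal livers, at 45.7, 417 and 58.8 TPM in the empty livers and at 49.0, 77.5 and 62.9 TPM in the UTOpiA livers. All ACLF livers were above all normal livers. For empty against normal, Ier3 had a log2 fold change of 3.19 (SE 0.82, adjusted p = 0.0116), and 1.42 (SE 0.24, adjusted p = 0.00122) without empty replicate 2. UTOpiA against normal had an adjusted p of 0.0808 with all livers, 0.000259 without empty replicate 2 and 0.0480 without empty replicate 1.

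**Figure D2:**
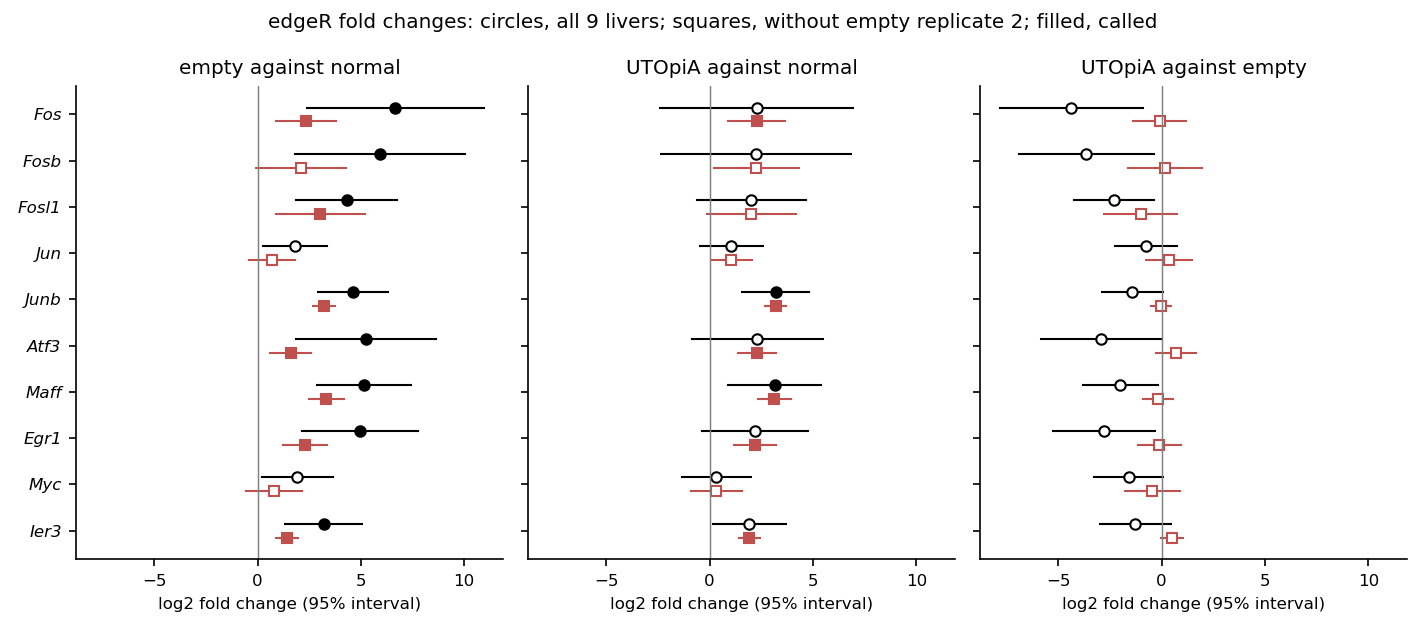
Log2 fold changes with 95% intervals from edgeR for the 10 genes (rows) in the 3 comparisons (panels), from all 9 livers (circles) and without empty replicate 2 (squares), filled where the gene was called. Leaving out this liver narrowed the intervals in each panel and moved UTOpiA against empty from a range of -4.37 to -0.74 to a range of -1.02 to 0.70.

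The comparison of UTOpiA with empty livers asks whether the treated circuit changed these genes in ACLF. None of the 10 genes was called, nor was any of the 14089 genes tested (0%), with adjusted p between 0.408 and 0.734 over the 10 genes. All 10 fold changes pointed to lower levels in UTOpiA livers, with a median log2 of -2.14, and 6 of the 10 had an unadjusted p under 0.05, against 4.56% of all genes lower at that level. The largest was Fos at -4.37 (95% interval -7.83 to -0.90) and the smallest Jun at -0.74 (-2.24 to 0.75). Junb was at -1.42 (-2.90 to 0.06) and Myc at -1.59 (-3.26 to 0.08). By TPM, all UTOpiA livers were below all empty livers for 1 of the 10, Junb, and for 8.62% of all genes; the groups overlapped in the other 9. DESeq2 gave no p for 6 of the 10 and called 0 of the other 4, while it called 0.378% of all genes higher and 0.506% lower. Limma on log2(TPM + 1) called 0 of the 10 and 0% of all genes.

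Without empty replicate 2, 6 of the 10 genes were lower and 4 higher in UTOpiA livers, with a median log2 fold change of -0.05 and 0 of 10 at an unadjusted p under 0.05 (5.7% of all genes lower at that level). Atf3 went from -2.94 to 0.70 (95% interval -0.25 to 1.66), Ier3 from -1.27 to 0.50 (-0.03 to 1.03), Jun from -0.74 to 0.36 (-0.77 to 1.48) and Fosb from -3.64 to 0.16 (-1.62 to 1.94). Fos was then at -0.08 (-1.37 to 1.20), Egr1 at -0.10 (-1.13 to 0.92), Maff at -0.19 (-0.92 to 0.53), and Junb, the most precise, at -0.02 (-0.51 to 0.48). Myc and Fosl1 remained lower in UTOpiA livers, at -0.45 (-1.79 to 0.88) and -1.02 (-2.78 to 0.75), with intervals across 0. No member was called, while 0.181% of all genes were called higher and 0.153% lower. DESeq2 without that liver called 0 of the 9 members with an adjusted p, and 2.5% of all genes higher and 0.993% lower. These intervals leave room for differences of about the width given, so they do not show that the groups were alike.

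**Figure D3:**
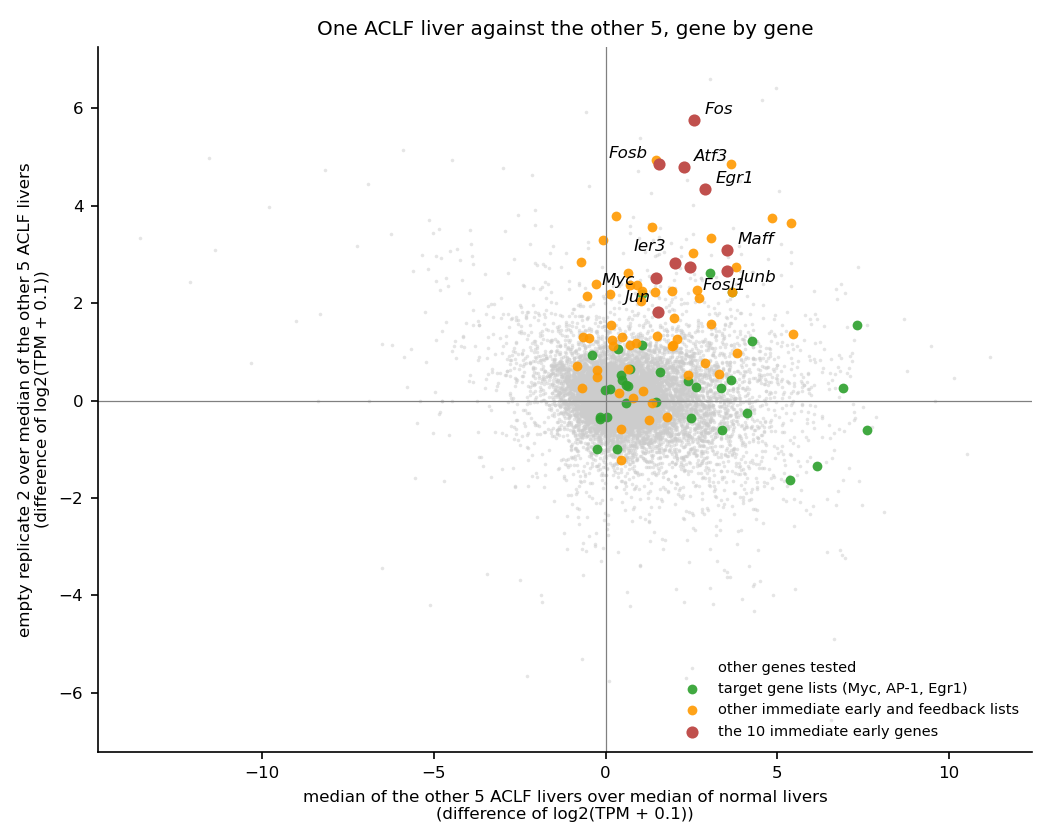
For each gene tested, the difference between the median of the other 5 ACLF livers and the median of normal livers (x axis) against the difference between empty replicate 2 and the median of the other 5 ACLF livers (y axis), both in log2(TPM + 0.1). All 10 immediate early genes (red) lie in the upper right, from Jun (1.53, 1.81) to Fos (2.58, 5.76), whereas the target genes (green) have a median of 0.27 on the y axis, against 2.96 for the 10.

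The other genes of the immediate early program and its surroundings were followed in 10 written lists, which held 146 genes, of which 144 were in the tables and 135 were tested. Of these 135, 54 were called higher and 5 lower in empty than in normal livers, where 20.7% and 11.1% of all genes were. In UTOpiA against normal livers 41 were called higher and 8 lower, beside 18.2% and 6.81% of all genes. Without empty replicate 2 the counts were 52 and 11 for empty livers and 48 and 8 for UTOpiA livers. In empty replicate 2, 33 of the 135 were more than 2-fold above every other ACLF liver, as were 1.56% of all genes. Between UTOpiA and empty livers 0 of 135 were called, and 32 had an unadjusted p under 0.05, as did 10.3% of all genes tested. Without empty replicate 2, 1 of 135, Klf10, was called lower and 0 higher, beside 0.153% and 0.181% of all genes.

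Among 10 other AP-1 and small Maf genes, 4 rose in the empty group (Fosl2, Batf, Jdp2 and Mafk; 20.7% of all genes), and 0 fell (11.1%); the list's median log2 fold change was 1.10, and 4 were also called without empty replicate 2. Fosl2, which encodes Fra-2, was at 11.3, 53.1 and 9.87 TPM in the empty livers against 0.474 to 1.25 TPM in normal livers (log2 fold change 4.24, SE 0.77, adjusted p = 0.00215; 2.99, adjusted p = 0.000813 without empty replicate 2). It was the sole gene of this list with empty replicate 2 more than 2-fold above the other ACLF livers. Batf, an AP-1 factor of lymphocytes, was at 5.601, 9.63 and 7.74 TPM in the empty livers (log2 4.03, SE 0.68, adjusted p = 0.00136), and Jdp2, a repressor of AP-1, at 18.0, 30.8 and 23.996 TPM (log2 3.10, SE 0.35, adjusted p = 0.000203). In UTOpiA livers 4 genes of this list rose (Fosl2, Batf, Batf3 and Jdp2), beside 18.2% of all genes, or 2 when UTOpiA replicate 1, UTOpiA replicate 2, normal replicate 2 or normal replicate 3 was left out. Jund, the Jun gene that most cells express without a stimulus, was at 46.2 to 78.5 TPM in normal livers and at 64.8, 242 and 106.2 TPM in empty livers and was not called.

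Other immediate early transcription factors numbered 14 tested genes, with Egr3, Egr4 and Nr4a3 not tested. Of the 14, 8 rose in the empty group (Egr2, Nr4a1, Ier2, Ier5, Ier5l, Klf4, Klf6 and Cebpd), 6 of these also rose in the UTOpiA group, and 0 fell in either, with a median log2 fold change of 1.90 for empty against normal. Over all genes 20.7% and 18.2% rose in these comparisons. Without empty replicate 2, Ier2 was not called (log2 from 1.69 to 0.73, adjusted p from 0.0354 to 0.103), Klf2 (1.07) and Klf10 (1.05) were called higher and Bhlhe40, a repressor of the circadian clock, lower (-1.07, adjusted p = 0.00422), which made 9 higher and 1 lower; Nr4a1 was then also called for UTOpiA livers. In 8 of the 14, empty replicate 2 was more than 2-fold above the other ACLF livers. Nr4a1, an orphan nuclear receptor, was at 1.32, 49.0 and 3.24 TPM in the empty livers and at 3.49, 1.51 and 1.02 TPM in the UTOpiA livers (empty against normal log2 4.74, SE 1.38, adjusted p = 0.0205; 1.71, adjusted p = 0.0372 without empty replicate 2). Egr2, a close relative of Egr1, had 0 counts in all normal livers and 33, 248 and 39 counts in the empty livers. Cebpd, which encodes an acute-phase transcription factor, was at 3.16 to 4.54 TPM in normal livers, at 87.6, 224 and 73.0 TPM in the empty livers and at 25.8, 47.6 and 31.2 TPM in the UTOpiA livers. Its UTOpiA and empty livers did not overlap; edgeR did not call that difference (log2 -1.71, adjusted p = 0.293; -1.02, adjusted p = 0.0862 without empty replicate 2), whereas DESeq2 did (-1.72, adjusted p = 0.00937).

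Of 15 immediate early genes that encode no transcription factor, 10 rose in the empty group and 1, Plk2, fell, beside 20.7% and 11.1% of all genes. The list's median log2 fold change was 2.39, and 1.45 without empty replicate 2, where 9 rose, with Plk3 lost, and 3 fell (Plk2, Trib1 and Errfi1). Gadd45b, a stress sensor that couples to the p38 and JNK kinases, was at 0.446 to 0.673 TPM in normal livers, at 37.7, 282 and 36.2 TPM in the empty livers and at 12.4, 20.9 and 11.6 TPM in the UTOpiA livers (empty against normal log2 7.15, SE 1.04, adjusted p = 0.000885; 5.44 without empty replicate 2). Gem, a small GTPase, was at 7.71, 89.7 and 10.3 TPM in the empty livers and at 6.001, 7.07 and 3.54 TPM in the UTOpiA livers. Ptgs2 was at 1.15, 36.1 and 1.26 TPM in the empty livers and at 1.14, 0.521 and 0.372 TPM in the UTOpiA livers. Empty replicate 2 was more than 2-fold above the rest in 8 of the 15. In the UTOpiA group 6 of the 15 rose, or 8 without empty replicate 2, and 2, Sgk1 and Plk2, fell, beside 18.2% and 6.81% of all genes.

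The feedback genes of the response, which include the MAP kinase phosphatases of the Dusp family, the Sprouty inhibitors and the RNA-decay factors of the Zfp36 family, were highest in empty replicate 2 among ACLF livers in 16 of 17, against 21.8% of all genes tested, and more than 2-fold so in 9 of 17. Of the 17, 5 rose in the empty group (Dusp2, Dusp4, Dusp8, Dusp10 and Spry2; 20.7% of all genes), where the list's median was 0.73 (log2) with all livers and 0.10 without empty replicate 2, and 3 rose in the UTOpiA group (18.2% of all genes). The 5 became 3 without empty replicate 2 (Dusp4 and Dusp8 lost), without UTOpiA replicate 1 or without any normal liver, and the 3 became 1 without normal replicate 2 or 3 and 4 without empty replicate 2, with Dusp8 gained. Dusp8 was at 0.870, 10.4 and 1.74 TPM in the empty livers and at 3.16, 3.71 and 2.10 TPM in the UTOpiA livers. Dusp10 was even across the empty livers (4.08, 4.86 and 3.34 TPM, log2 fold change 2.25, SE 0.30, adjusted p = 0.000459).

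The kinases and serum response factor axis upstream of these genes showed few changes. Of 24 genes, 3 rose (Map3k8, Rps6ka3 and Elk3) and 2, including Mapk9, fell in the empty group, beside 20.7% and 11.1% of all genes. The median of the list was -0.14 on the log2 scale, and 4 rose and 4 fell without empty replicate 2. Map3k8, the kinase Tpl2 that couples endotoxin receptors to ERK, was at 0.733 to 1.12 TPM in normal livers, at 7.57, 35.8 and 6.55 TPM in the empty livers and at 2.39, 3.90 and 2.63 TPM in the UTOpiA livers. Its empty and UTOpiA livers did not overlap, and the difference between them was not called by edgeR (log2 -2.31, adjusted p = 0.346; -1.06, adjusted p = 0.130 without empty replicate 2) but was called by DESeq2 (-2.32, adjusted p = 0.0136). In the UTOpiA group 2 of the 24 rose and 2 fell, beside 18.2% and 6.81% of all genes; without empty replicate 2, 3 rose, with Map3k8 gained (1.42, adjusted p = 0.00383).

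Of 11 genes of the Myc network tested, 3 rose in both ACLF groups (Mycl, Mxd1 and Mnt) and 1, Mlx, fell in both, close to the shares over all genes (20.7% and 11.1% for empty, 18.2% and 6.81% for UTOpiA livers). These counts were the same without empty replicate 2. Mxd1 and Mnt encode repressors that compete with Myc for Max. Mxd1 was at 1.87 to 2.26 TPM in normal livers, at 7.68, 35.4 and 11.8 TPM in the empty livers and at 18.0, 16.2 and 7.97 TPM in the UTOpiA livers. Its log2 fold change of empty against normal was 2.59, and 1.65 without empty replicate 2. Of 15 textbook Myc target genes, 1, the ribosome assembly gene Npm1, rose in the empty group (log2 fold change 1.08, SE 0.17, adjusted p = 0.000919) and 0 fell; in the UTOpiA group 0 rose and 1, Rrs1, fell. Over all genes 20.7% and 18.2% rose in these comparisons and 11.1% and 6.81% fell, and both pairs of Myc target counts were the same without empty replicate 2. Empty replicate 2 was more than 2-fold above the other ACLF livers in 0 genes of either list.

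Of 10 textbook AP-1 target genes tested, 9 rose in both ACLF groups, where 20.7% and 18.2% of all genes rose, with medians (log2) of 4.31 and 3.41, and empty replicate 2 was the highest ACLF liver in 1 of 10, against 21.8% of all genes. The 9 and 9 were the same in number without that liver. Mmp9, a neutrophil and macrophage gelatinase, was at 7.32, 1.76 and 13.5 TPM in the empty livers and at 2.80, 5.68 and 0.723 TPM in the UTOpiA livers, where its normal livers held 1, 0 and 3 counts. Cd44, a hyaluronan receptor, was at 82.4, 98.5 and 119 TPM in the empty livers against 0.474 to 0.755 TPM in normal livers (log2 6.84, SE 0.51, adjusted p = 5.80e-05). Spp1, which encodes osteopontin, was at 129, 66.0 and 245 TPM in the empty livers. Members of this list are also made by leukocytes and bile duct cells, whose summed markers were higher in every ACLF than in every normal liver (neutrophil 175 to 1108 against 2.25 to 5.58 TPM, cholangiocyte 88.4 to 366 against 14.3 to 22.5 TPM), and the part of these cells in the list was not tested. Between UTOpiA and empty livers 0 of 10 were called with all livers, while Cd44 (-1.49, adjusted p = 0.0469) and Plau (-1.71, adjusted p = 0.0376) were lower without UTOpiA replicate 2 (0.119% of all genes were then called lower and 0.223% higher), and DESeq2 called Plaur lower (-1.26, adjusted p = 0.00141).

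Of 9 Egr1 co-repressors and target genes, 8 rose in empty livers and 6 in UTOpiA livers, beside 20.7% and 18.2% of all genes, and empty replicate 2 was more than 2-fold above the other ACLF livers in 3 (Icam1, Thbs1 and Pdgfb). Without it, 7 rose in empty livers, with Icam1 lost (log2 from 1.63 to 0.57, adjusted p from 0.0371 to 0.0878), and 1, the co-repressor gene Nab1, fell (-1.20, adjusted p = 0.000476), and 7 rose in UTOpiA livers, with Thbs1 gained. Thbs1, the matrix protein thrombospondin 1, was at 24.8, 154 and 47.6 TPM in the empty livers and at 10.6, 43.5 and 3.30 TPM in the UTOpiA livers. Of 10 integrated stress response genes around Atf3, 3 rose (Ddit3, Ppp1r15a and Vldlr) and 1 fell (Atf5) in the empty group, and 2 rose (Ddit3 and Vldlr) and 2 fell (Atf5 and Asns) in the UTOpiA group, with 20.7% and 11.1% of all genes in the former comparison and 18.2% and 6.81% in the latter. Without UTOpiA replicate 1, 1 rose there, and without empty replicate 2, 3 did, with Ppp1r15a gained (1.65, adjusted p = 0.00138). Ppp1r15a, the stress-induced subunit that reverses eIF2alpha phosphorylation, was at 12.9, 130 and 23.0 TPM in the empty livers. Atf5 was at 683 to 861 TPM in normal livers and at 343, 148 and 355 TPM in the empty livers (log2 -1.97, SE 0.37, adjusted p = 0.00234).

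**Figure D4:**
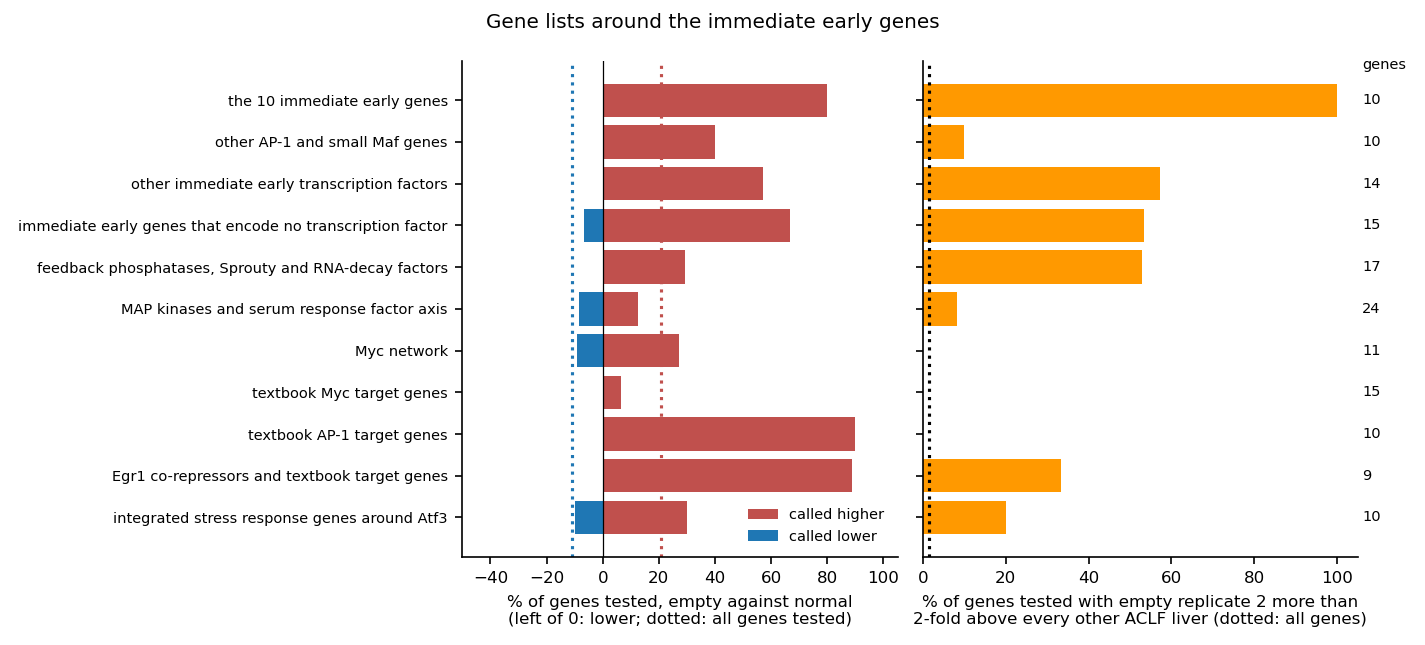
Share of the genes tested in each list that were called higher or lower in empty than in normal livers (left; dotted lines at 20.7% and 11.1% for all genes) and share with empty replicate 2 more than 2-fold above every other ACLF liver (right; dotted line at 1.56%), with the number of genes at the right edge. The 10 immediate early genes reach 100% on the right, the immediate early and feedback lists other than AP-1 lie above 50%, and the Myc network, Myc target and AP-1 target lists are at 0.

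The genes whose profiles over the 9 livers were closest to each member were found by the root mean square difference of centred log2 CPM, among the genes with a mean of at least 1 CPM (12995 or 12996 per member). All profiles share the same 9 libraries and the high values of empty replicate 2. The closest match of any member was Tnfaip3, which encodes the NF-kB inhibitor A20, to Maff (0.18), and Rnd1 was the second closest to Maff (0.34). Fos was closest to Fosb (0.52) and Il6 (0.54), and Fosb to Fos and Egr1 (0.54). Fosl1 was closest to Nfkbia (0.40), which encodes the NF-kB inhibitor IkB alpha, and Ppp1r15a (0.46). Junb was closest to the antiproliferative gene Btg2 (0.38) and to Tnfaip3 (0.39), Atf3 to Nr4a1 (0.40) and Egr1 (0.51), and Egr1 to the cytochrome P450 gene Cyp2c24 (0.51) and Atf3. Jun (Tmcc2, 0.32, and Prc1, 0.34), Myc (Ccrl2, 0.45, and Slc10a2, 0.48) and Ier3 (Tmtc2, 0.41, and Runx3, 0.42) had closest matches that were neither members nor in the written lists, as did Maff. The median difference from all compared genes was between 1.09 for Jun and 2.34 for Fos.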

How the data were processed

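Bulk liver RNA-seq of 9 rats was analysed, with groups and replicates taken from the sample labels; the labels number the samples of a group as separate bio reps. The authors trimmed and aligned the reads with HISAT2 and deposited raw counts per gene from featureCounts, without normalization, and TPM, a value scaled by gene length and library. The processing notes of the labels name Trimmomatic and the rat build rn6, whereas the methods name Cutadapt and a mouse build; the tables hold rat genes. Labels and methods also name different library kits. Whether counting used strand is not given in the sources used here.

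Counts were fitted with edgeR 4.0.16 in R 4.3.3 (filterByExpr on the 3 groups, TMM, robust quasi-likelihood, all 9 libraries, 1 mean per group). Library totals were between 14241172 and 17321677, and TMM factors between 0.80 and 1.32; fitted folds of genes with few counts in normal livers depend on the prior count. Genes were called at an adjusted p under 0.05 and a fold above 2, as thresholds of the study. The alternatives were DESeq2 1.42.0, limma 3.58.1 on log2(TPM + 0.1) or log2(TPM + 1) of genes averaging at least 1 TPM, the latter also unfiltered, median-of-ratios scaling, all genes kept, a minimum of 10 counts per library, no fold threshold, only the 6 libraries compared, a replicate block, and each library left out; DESeq2 and limma without empty replicate 2 were chosen after seeing the data. Tests were checked on simulated data.

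The 10 genes and the lists were chosen with earlier results of these data known. All 10 are named; of each list, up to 3 called genes with the largest change of empty against normal and a mean of at least 1 CPM are named, with the 2 closest profiles per gene and the markers Alb, S100a8, Cd68 and Krt19. Other names, such as Jund, Klf10, Plau, Plaur, the genes more than 10-fold above in empty replicate 2, and the members of small counts, were chosen after their values were seen. Sequences are from RefSeq (GRCr8). A few results on single genes are not reported here.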

Additional observations from a re-analysis of the deposited data

How the results depend on the processing

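In empty against normal, 5 of the 10 genes (Egr1, Fosl1, Ier3, Junb and Maff) were called in every alternative that gave an adjusted p; the number called was 8 with all livers, 4 of 4 by DESeq2, which gave no p for the other 6 because of its rule on outlying counts (21.7% of all genes called higher), 5 of 10 with no filter (15.1%), 5 of the 6 tested, with Jun gained, where every library had at least 10 counts (14.5%), and 5 to 10 with a library left out. Fos, Fosb, Fosl1 and Maff were not tested at that minimum. In UTOpiA against normal, 2 were called with all livers, 1 of 4 by DESeq2 (19.5%), 1 of 6 with at least 10 counts (12.2%), 1 of 10 with no filter (12.8%) or by limma on log2(TPM + 1) without a filter (9.88%), 5 of 7 with only the 6 libraries (17.2%), and 1 to 6 with a library left out; without empty replicate 2, DESeq2 called 7 of 10 (19.5%) and limma 6 of 8 (17%). In UTOpiA against empty the number was 0 in every alternative. The log2 fold change of UTOpiA against empty turned positive without empty replicate 2 by DESeq2 for Fosb (0.13), Jun (0.33), Atf3 (0.67) and Ier3 (0.47), and by limma for Jun (0.12), Atf3 (0.44) and Ier3 (0.25). With a library left out it ranged from -4.20 to 0.16 for Fosb, -1.17 to 0.36 for Jun, -3.50 to 0.70 for Atf3 and -1.71 to 0.50 for Ier3, the upper end each time without empty replicate 2. The log2 fold change of Myc in UTOpiA against normal ranged from -0.042, without normal replicate 3, to 1.18. Of the counts over lists, 1161 stayed within 1.5 times and 99 moved further. The causes were not tested. Same-numbered libraries correlated between -0.18 and 0.06, and 1 of 9 was closest to its own number. These values showed no pairing by number, but 3 livers per group are too few to exclude one. A replicate block gave 6, 2 and 0 called in the 3 comparisons. Fosb and Fosl1, with 4 counts each in all normal livers, are limited by depth.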

Other observations

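Some genes of the lists differed between UTOpiA and empty livers by DESeq2 whether or not empty replicate 2 was included, and they were picked out after their values were seen. Over all genes DESeq2 called 0.506% lower and 0.378% higher with all livers, and 0.993% lower and 2.5% higher without that liver. Cebpd was lower in UTOpiA livers at a log2 fold change of -1.72 with all livers and -1.04 (adjusted p = 0.00940) without that liver, Map3k8 at -2.32 and -1.08 (adjusted p = 0.0235), and Plaur, which encodes the urokinase receptor, at -1.26 and -1.20 (adjusted p = 0.0191). Without empty replicate 2 DESeq2 also called Klf10, a TGF-beta-induced repressor (-1.21, adjusted p = 3.89e-05), Gadd45b (-1.15, adjusted p = 0.00163), Timp1, a metalloproteinase inhibitor (-1.32, adjusted p = 0.00387), and Lgals3, which encodes galectin-3 (-1.12, adjusted p = 0.0235), lower in UTOpiA livers. Of these 7 genes, edgeR called 1 without that liver, Klf10 (-1.19, adjusted p = 0.0455), and 0 with all livers.

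Besides inflammatory genes, the genes more than 10-fold above every other ACLF liver in empty replicate 2 included Scd, the stearoyl-CoA desaturase of lipid synthesis, at 540 TPM against at most 49.2 TPM, and Pnpla5, at 1.49 TPM and listed at 0 in the other 5 ACLF livers.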
